A study of Mus musculus with 8 samples.

Results

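The TET and DNMT genes encode the enzymes that remove and write DNA methylation, and 6 of them were followed here: Tet1, Tet2, Tet3, Dnmt1, Dnmt3a and Dnmt3b. They were chosen by gene symbol from a table of 22206 probe sets, of which 19572 carry a symbol, for 19505 genes in all, and each of the 6 had 1 probe set. The study measured total RNA of male mice aged 12 weeks on 1-colour Affymetrix arrays, in 8 samples. Exposed mice had received clothianidin (CLO), an insecticide of the neonicotinoid class, for 2 weeks at 50 mg/kg/day, which the submitters give as a level without observed adverse effects. Vehicle mice had received 1% DMSO over the same time. The groups were exposed cerebral cortex, vehicle cerebral cortex, exposed hippocampus and vehicle hippocampus, with 2 arrays each. Arrays carry the numbers the submitters gave them, 3 and 6 for exposed and 1 and 6 for vehicle samples of either tissue. The labels give no strain and do not say that the arrays of a group came from separate animals, so errors and p-values reflect only how far these samples differ, possibly for technical reasons. Each sample was whole dissected tissue, in which fewer cells of a type and less RNA per cell cannot be told apart.

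DNA methylation in mammals sits mostly on cytosine in CG dinucleotides. Dnmt3a and Dnmt3b place it on unmethylated DNA, and Dnmt1 copies it to the new strand after replication. Tet1, Tet2 and Tet3 are dioxygenases that use iron and 2-oxoglutarate to oxidise 5-methylcytosine to 5-hydroxymethylcytosine and further products, which base excision repair can replace with plain cytosine. Neurons no longer divide but keep Dnmt1 and Dnmt3a, and brain DNA is known for its high content of 5-hydroxymethylcytosine.

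The promoters of the 3 Tet genes are shown because CG dinucleotides are the letters these enzymes act on, and because the Tet genes varied differently over the groups. The windows are the 250 bases before the RefSeq transcription start in GRCm38.p6, written 5′ to 3′, with every CG in capitals.
Tet1 chr10:62887325-62887574, minus strand: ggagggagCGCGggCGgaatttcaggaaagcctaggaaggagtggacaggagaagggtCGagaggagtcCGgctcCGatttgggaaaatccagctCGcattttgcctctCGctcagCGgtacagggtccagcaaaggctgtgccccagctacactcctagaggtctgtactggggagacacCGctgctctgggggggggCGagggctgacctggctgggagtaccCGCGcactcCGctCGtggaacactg
Tet2 chr3:133544391-133544640, minus strand: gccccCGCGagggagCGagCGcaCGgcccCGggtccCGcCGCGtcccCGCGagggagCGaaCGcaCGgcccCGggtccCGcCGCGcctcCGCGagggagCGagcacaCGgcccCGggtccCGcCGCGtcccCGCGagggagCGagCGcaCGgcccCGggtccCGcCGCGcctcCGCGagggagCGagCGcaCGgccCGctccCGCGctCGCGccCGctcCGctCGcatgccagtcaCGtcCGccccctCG
Tet3 chr6:83441679-83441928, minus strand: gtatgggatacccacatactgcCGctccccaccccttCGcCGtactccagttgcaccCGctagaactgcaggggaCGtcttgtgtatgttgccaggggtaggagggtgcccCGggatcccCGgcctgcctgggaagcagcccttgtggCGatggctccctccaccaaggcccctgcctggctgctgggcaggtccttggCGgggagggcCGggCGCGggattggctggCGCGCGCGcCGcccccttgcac
The Tet2 window held 51 CG dinucleotides, the Tet1 window 15 and the Tet3 window 17, against a median of 6 over 32851 windows of the same length. At least as many as in the Tet2 window were found in 0.067% of all windows. For the Tet1 window that share was 27.3% and for the Tet3 window 23.5%. The Dnmt3b window held 21. Dnmt1 and Dnmt3a have 3 annotated starts each, with 2 to 26 CG for Dnmt1 and 15 to 40 for Dnmt3a. The GC box GGGCGG, which contains a CG, occurred on either strand in each of the 3 Tet windows and in 32.7% of all windows. The cyclic AMP response element TGACGTCA (1.55% of all windows) and the AP-1 motif TGANTCA (6.75%) were not found in the windows of the 6 genes. Methylation of these windows was not analysed here.

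Values are log2 levels, on which a difference of 1 is a 2-fold difference. The median level of an array lay between 5.21 and 5.40, and Pearson's r between the arrays of one group ran 0.9867 to 0.9915 across probe sets. Markers of hippocampal neurons (6 of 8 tested) averaged 10.05 to 10.17 on hippocampal and 5.71 to 5.89 on cortical arrays, and those of cortical neurons (7 of 8 tested) averaged 8.59 to 9.31 on hippocampal and 10.94 to 11.62 on cortical arrays. Both tissue labels therefore match their markers. A pair of vehicle arrays stood apart in choroid plexus markers (10 of 11 tested), with means of 11.31 on vehicle hippocampus 1 and 6.20 on vehicle cortex 6, against 4.09 to 4.98 on the other 6 arrays. Probe sets in the lowest 33.3% by mean level (below 3.937) were left out of the tests, and 14804 were tested. Dnmt3b fell under that limit, so 5 of the 6 genes were tested. No detection values were used here, so levels are not shown to stand above background.

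The first comparison asked whether exposure changed the level of these genes in each tissue. Tet2 was the gene of the 6 that differed most between exposed and vehicle samples, with opposite directions in cortex and hippocampus. None of the 5 tested genes passed the threshold in either tissue, which with 2 arrays per group does not show that their levels were equal. With limma's moderated test over all 14804 probe sets, 0 of 5 passed an adjusted p of 0.05 in cortex, where 0.00675% of all probe sets did, and 0 of 5 in hippocampus, where again 0.00675% did. At an unadjusted p under 0.05 the count was 1 of 5 in each tissue, which was Tet2, against 6.18% of all probe sets in cortex and 5.81% in hippocampus. The 6 genes were proposed with results of these samples known, so their differences are given as a description. The plot of single arrays shows the levels of the 6 genes in the 4 groups.

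**Figure D1:**
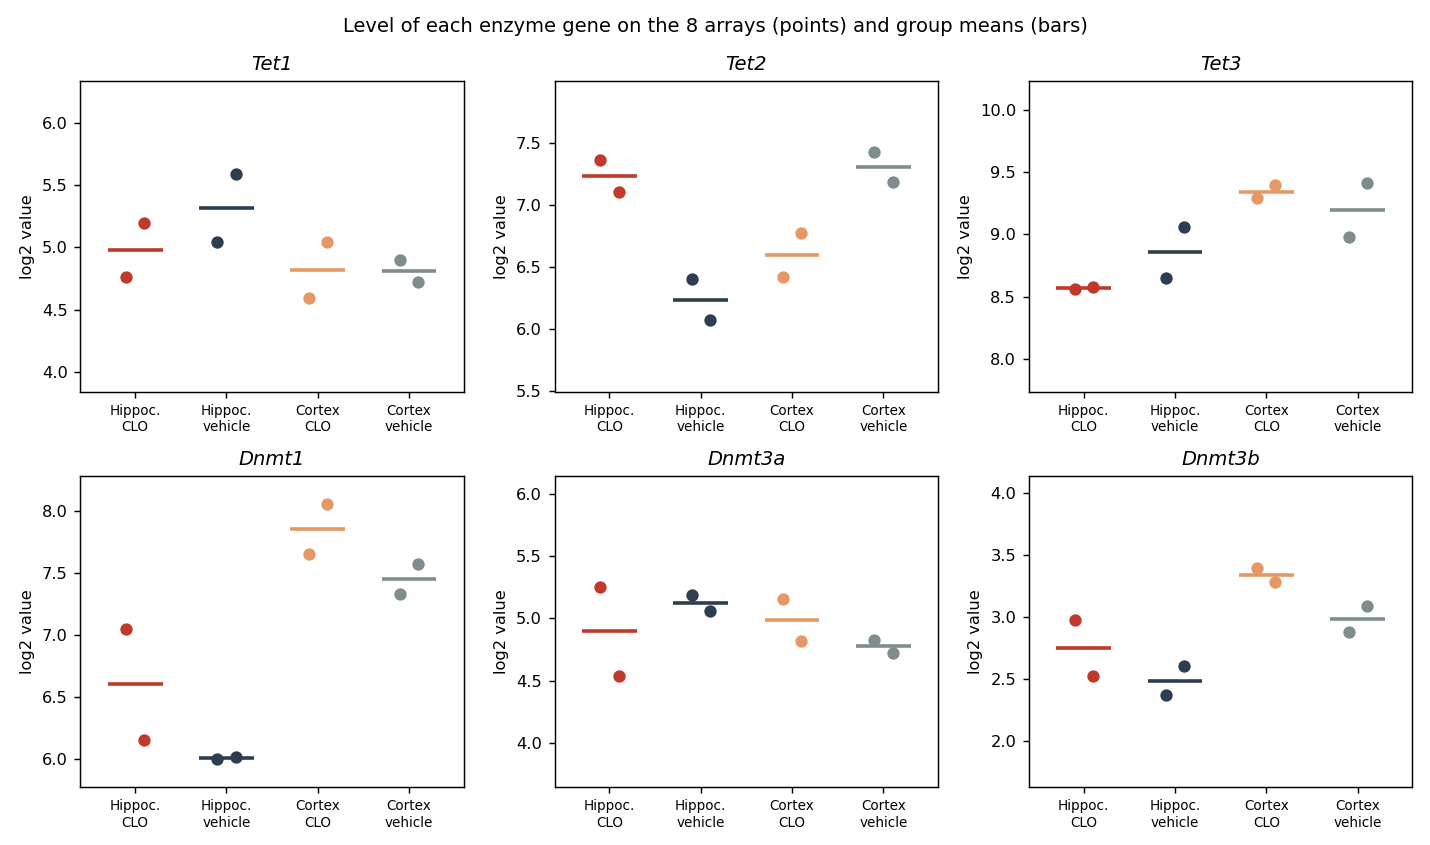
Log2 level (y axis, 2.5 units high in each panel) of the 6 genes by group (x axis: exposed hippocampus, vehicle hippocampus, exposed cortex, vehicle cortex); points are single arrays and bars are means of 2. Tet2 was higher on both exposed than on both vehicle hippocampus arrays and lower on both exposed than on both vehicle cortex arrays.

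Tet2 makes a TET dioxygenase without a CXXC DNA-binding domain of its own. In cortex it measured 6.42 and 6.77 on exposed arrays, against 7.42 and 7.18 on vehicle arrays. In hippocampus it measured 7.36 and 7.10 on exposed arrays, against 6.40 and 6.07 on vehicle arrays. The exposed arrays were both the lower ones in cortex and both the higher ones in hippocampus, with no overlap in either tissue. In cortex this came to -0.71 on the log2 scale (SE 0.28, 95% interval -1.32 to -0.09, limma adjusted p = 0.784), a level 1.63-fold lower in exposed samples. In hippocampus it was 0.99 (SE 0.28, 95% interval 0.38 to 1.61, limma adjusted p = 0.769), a level 1.99-fold higher in exposed samples. A larger absolute difference was found for 5.32% of tested probe sets in cortex and 1.33% in hippocampus. The difference of the hippocampal and cortical differences was 1.70 (SE 0.40, 95% interval 0.82 to 2.58), and it did not pass over all probe sets (limma adjusted p = 0.998), where 0% passed and 3.45% had an unadjusted p under 0.05. Groups without overlap that were lower in exposed cortex and higher in exposed hippocampus occurred for 345 of 14804 probe sets (2.33%), and the reverse for 1.71%. Averaged over both tissues Tet2 differed by 0.14 (SE 0.23). Without the vehicle arrays high in choroid plexus markers, it differed by -0.82 in cortex and 1.16 in hippocampus.

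Of 12 marker lists, some varied over the arrays along with Tet2 in one or both tissues. Cortical neuron markers averaged 10.94 and 11.17 on exposed cortex arrays, against 11.62 and 11.19 on vehicle cortex arrays. In hippocampus they averaged 9.31 and 8.81 on exposed arrays, against 8.69 and 8.59 on vehicle arrays. As with Tet2, the exposed means lay below the vehicle means in cortex and above them in hippocampus, although the nearest cortex arrays were only narrowly apart. The log2 of the summed level of a list follows its most abundant genes. For cortical neuron markers it was 15.93 to 16.44 in exposed and 16.28 to 16.67 in vehicle cortex, which overlapped. In hippocampus it was 13.38 to 13.97 in exposed and 13.29 to 13.33 in vehicle samples. Of the 7 tested markers, 5 were lower in exposed cortex and 5 were higher in exposed hippocampus. Activity-regulated genes, which neurons transcribe soon after firing, averaged 10.18 and 9.98 in exposed cortex, against 11.84 and 10.10 in vehicle cortex, and their summed log2 level was 16.65 to 17.00 against 17.10 to 18.07. Their means in cortex overlapped, since vehicle cortex 6 lay between the 2 exposed arrays, while the summed levels did not overlap. Of these 14 genes, 13 were lower in exposed cortex, 1 of them past the threshold. In exposed hippocampus 11 were higher, with means of 8.75 and 8.67 against 8.61 and 8.46 in vehicle hippocampus. The summed log2 level of the 14 there was 15.51 to 15.56 in exposed and 15.45 to 15.52 in vehicle samples, which overlapped. Microglia markers (9 of 10 tested) averaged 7.89 and 7.77 in exposed cortex, against 8.21 and 8.04 in vehicle cortex, with 8 of 9 lower and a summed log2 level of 12.17 to 12.19 against 12.39 to 12.47. Oligodendrocyte markers (9 of 10 tested) averaged 11.90 and 11.73 in exposed cortex, against 12.07 and 12.06 in vehicle cortex, with 8 of 9 lower and a summed log2 level of 18.12 to 18.30 against 18.48 to 18.59. The oligodendrocyte sum was mostly Mbp, at 18.00 to 18.18 in exposed and 18.34 to 18.47 in vehicle cortex. Both the microglia and the oligodendrocyte list were lower without overlap in exposed cortex and overlapped in hippocampus. Of 8 endothelial markers 2 were higher in exposed cortex and 6 in exposed hippocampus, with overlapping means in both tissues (8.25 to 8.37 in exposed and 8.33 to 8.40 in vehicle cortex, 8.23 to 8.59 in exposed and 7.99 to 8.40 in vehicle hippocampus). Ependymal markers (5 of 7 tested) went the other way from Tet2 in hippocampus, with 5 of 5 lower in exposed samples. They averaged 4.82 and 4.92 on exposed arrays, against 6.57 and 5.25 on vehicle hippocampus 1 and 6. Their summed log2 level was 7.24 to 7.29 in exposed and 7.63 to 9.90 in vehicle hippocampus, and their cortex means overlapped. Meningeal and fibroblast markers (7 of 8 tested) also went the other way, with 5 higher in exposed cortex and 5 lower in exposed hippocampus. Their means overlapped in both tissues. Markers of immature neurons (3 of 8 tested) averaged higher without overlap in exposed cortex, and 2 of 3 were higher in exposed hippocampus. Choroid plexus markers were lower for 8 of 10 in exposed cortex and 10 of 10 in exposed hippocampus, with overlapping means. The part of these lists in the Tet2 differences was not tested. Without vehicle cortex 1, the array highest in activity-regulated genes, Tet2 differed by -0.58 in cortex.

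**Figure D2:**
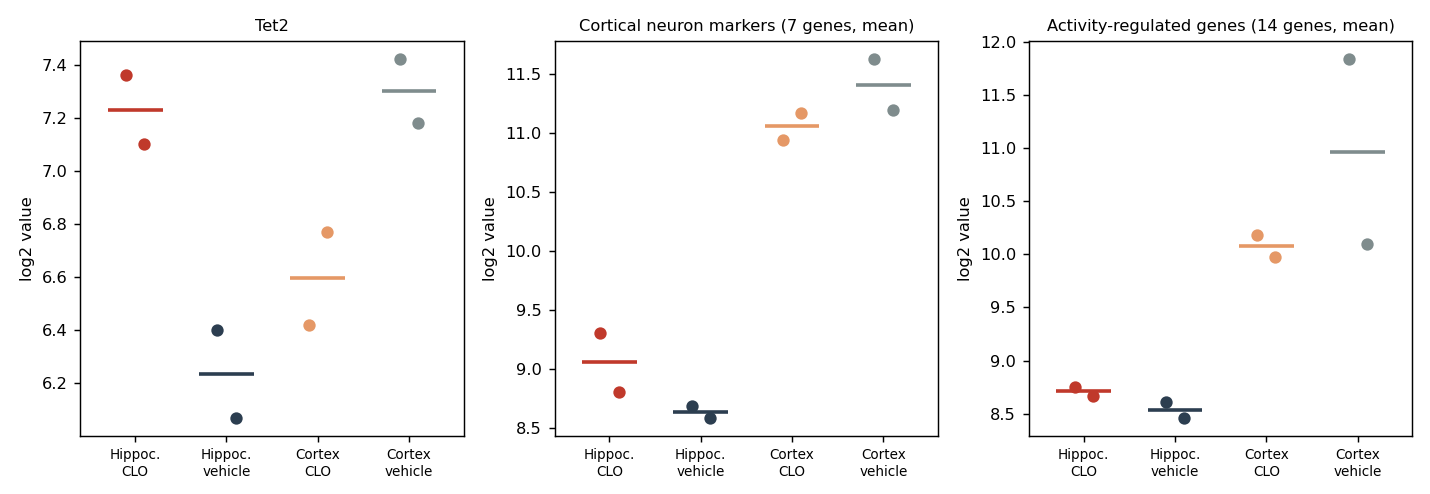
Log2 level of Tet2 and mean log2 level of 7 cortical neuron markers and of 14 activity-regulated genes (y axes, each with its own range) on single arrays (points, with group means as bars) in the 4 groups (x axes). The 3 panels share the order of exposed and vehicle group means within each tissue. In activity-regulated genes, vehicle cortex 1 was at 11.84 and vehicle cortex 6 lay between the exposed cortex arrays at 10.10.

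Tet1 and Tet3, which unlike Tet2 have forms with a CXXC domain that binds CG-rich DNA, showed no opposite placement of exposed and vehicle arrays in the tissues. Tet1 measured 4.59 and 5.04 on exposed and 4.90 and 4.72 on vehicle cortex arrays, and 4.76 and 5.20 on exposed and 5.04 and 5.59 on vehicle hippocampus arrays. The groups overlapped in both tissues, with log2 differences of 0.00 in cortex (95% interval -0.70 to 0.71) and -0.34 in hippocampus (95% interval -1.04 to 0.37). Tet3 measured 9.29 and 9.40 on exposed and 8.98 and 9.41 on vehicle cortex arrays, which overlapped (log2 difference 0.15, 95% interval -0.43 to 0.73). In hippocampus Tet3 measured 8.56 and 8.58 on exposed and 8.65 and 9.06 on vehicle arrays. Both exposed arrays lay below both vehicle arrays by a narrow margin, with a log2 difference of -0.28 (95% interval -0.86 to 0.29). These intervals include 0, and also differences as far as -1.04 for Tet1 and -0.86 for Tet3 in hippocampus.

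Among the methyltransferases, Dnmt1 was the gene whose exposed arrays lay above the vehicle arrays in both tissues. Dnmt1, the maintenance enzyme, measured 7.65 and 8.06 on exposed cortex arrays, against 7.33 and 7.57 on vehicle cortex arrays. In hippocampus it measured 7.05 and 6.16 on exposed arrays, against 6.00 and 6.02 on vehicle arrays. Exposed minus vehicle came to 0.41 in cortex (SE 0.33, 95% interval -0.31 to 1.12, limma adjusted p = 0.873) and 0.59 in hippocampus (SE 0.33, 95% interval -0.12 to 1.31, limma adjusted p = 0.892). Averaged over both tissues it was 0.50 (SE 0.23, unadjusted p = 0.0473, as 5.97% of all probe sets had a p under 0.05, and limma adjusted p = 0.826), and groups without overlap that were higher in exposed samples of both tissues occurred for 4.17% of all probe sets. The hippocampal difference rested on exposed hippocampus 3. Without that array Dnmt1 differed by 0.15, and without exposed hippocampus 6 by 1.04. Exposed hippocampus 3 was also higher than exposed hippocampus 6 in meningeal and fibroblast markers (7 of 8 tested). Their means were 9.44 and 7.81 on exposed hippocampus 3 and 6, against 9.48 and 8.74 on vehicle hippocampus 1 and 6. The summed log2 level of these markers was 16.47 on exposed hippocampus 3 and 13.32 on exposed hippocampus 6, against 15.85 on vehicle hippocampus 1 and 14.43 on vehicle hippocampus 6. That sum was mostly Ptgds, at 16.35 and 13.08 on exposed hippocampus 3 and 6. In cortex the list went against Dnmt1 on the exposed arrays, with means of 9.06 on exposed cortex 3 and 8.22 on exposed cortex 6. Vehicle cortex 1 and 6 averaged 8.24 and 8.40. The Dnmt1 difference in cortex was 0.20 without exposed cortex 6. Without the vehicle arrays high in choroid plexus markers, Dnmt1 differed by 0.52 in cortex and 0.58 in hippocampus. Markers of proliferating cells, in which Dnmt1 is abundant, averaged 5.87 to 6.24 in exposed and 5.84 to 6.02 in vehicle cortex, and 6.03 to 6.08 in exposed and 5.92 to 6.03 in vehicle hippocampus (7 of 11 tested). Their summed log2 level was 12.70 to 13.28 in exposed and 12.49 to 12.71 in vehicle cortex, and 12.41 to 12.57 in exposed and 12.43 to 12.64 in vehicle hippocampus. These sums were mostly Pcna, which ran from 12.34 to 13.25 over the 8 arrays. Markers of immature neurons (3 of 8 tested) averaged 6.29 and 6.40 in exposed cortex, against 6.09 and 6.02 in vehicle cortex, with 3 of 3 higher and a median difference of 0.34. In hippocampus they averaged 6.45 and 6.62 in exposed samples, against 6.45 and 6.42 in vehicle samples, with 2 of 3 higher and a median difference of 0.29. Their summed log2 level was 8.41 to 8.52 in exposed and 8.10 to 8.12 in vehicle cortex, and 8.38 to 8.74 in exposed and 8.81 to 8.84 in vehicle hippocampus. The part of these 3 lists in the Dnmt1 differences was not tested.

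Of the de novo methyltransferase genes, Dnmt3a passed the filter and Dnmt3b did not. Dnmt3a measured 5.16 and 4.82 on exposed and 4.83 and 4.72 on vehicle cortex arrays, and 5.25 and 4.54 on exposed and 5.19 and 5.06 on vehicle hippocampus arrays. Its groups overlapped in both tissues, with log2 differences of 0.21 in cortex (95% interval -0.48 to 0.91) and -0.23 in hippocampus (95% interval -0.93 to 0.47; 0.13 without exposed hippocampus 6). Dnmt3b measured 3.40 and 3.28 on exposed and 2.88 and 3.09 on vehicle cortex arrays, and 2.98 and 2.53 on exposed and 2.37 and 2.61 on vehicle hippocampus arrays. All 8 values were below the filter limit. With no filter, its log2 differences were 0.35 in cortex (95% interval -0.21 to 0.92) and 0.27 in hippocampus (95% interval -0.30 to 0.83).

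**Figure D3:**
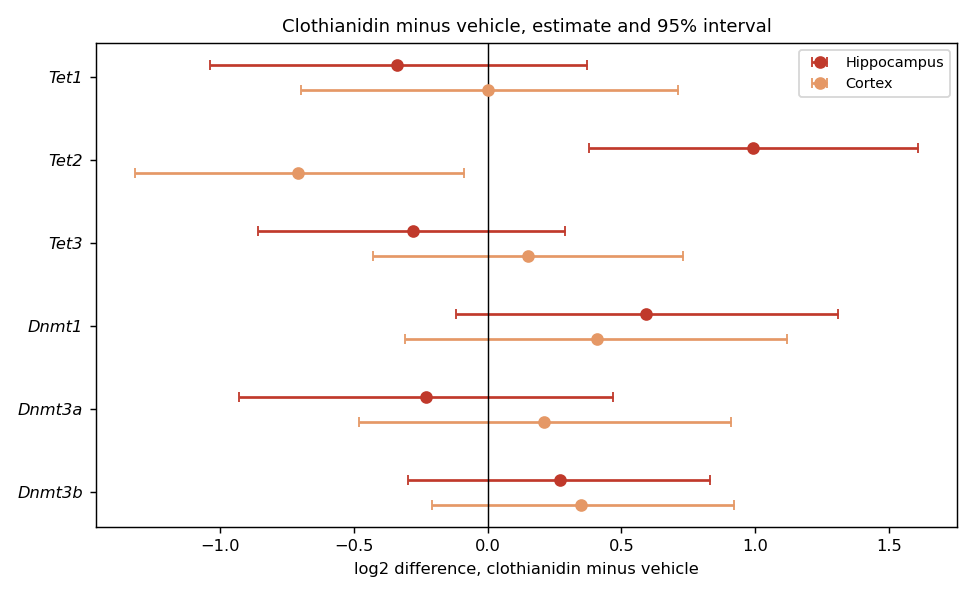
Log2 difference of exposed minus vehicle samples (x axis) for the 6 genes (y axis) in hippocampus and cortex; points are estimates and bars are 95% intervals of the moderated model, with Dnmt3b from the fit without a filter. The 2 intervals of Tet2 lie on opposite sides of 0, and those of the other genes include 0.

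Of the 5 tested genes, 1 was higher (Dnmt1) and 1 lower (Tet2) without overlap in exposed cortex, where 17.1% of all probe sets were higher and 21.4% lower in that way. In exposed hippocampus 2 were higher (Tet2 and Dnmt1) and 1 lower (Tet3), against 16.7% and 14% of all probe sets. With 2 arrays per group, an exact permutation test of a single gene cannot give a two-sided p below 0.333.

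The second comparison set the tissues against each other within each arm. Dnmt1 was lower in hippocampus than in cortex in both arms, and Tet2 was lower in hippocampus in vehicle samples. In exposed samples 1 of 5 tested genes passed (14.5% of all probe sets did, 9.25% higher and 5.22% lower in hippocampus), and in vehicle samples 2 of 5 (17.7% of all probe sets, 10.1% higher and 7.63% lower). At an unadjusted p under 0.05 there were 3 of 5 in exposed samples, against 29.3% of all probe sets, and 2 of 5 in vehicle samples, against 31.4%. Arrays did not overlap for 1 gene higher and 2 lower in exposed hippocampus, where 35% and 22% of all probe sets were so placed, and for 2 higher and 2 lower in vehicle hippocampus, where 34.5% and 24.7% were. In exposed samples Dnmt1 averaged 6.61 ± 0.63 in hippocampus and 7.86 ± 0.29 in cortex (SD, n = 2 each). Hippocampus minus cortex came to -1.25 (SE 0.33, 95% interval -1.97 to -0.53, limma adjusted p = 0.0245). In vehicle samples Dnmt1 averaged 6.01 ± 0.01 in hippocampus and 7.45 ± 0.17 in cortex (SD, n = 2 each), or -1.44 (SE 0.33, 95% interval -2.16 to -0.72, limma adjusted p = 0.01). In both arms each hippocampal array was below each cortical array. The Dnmt1 call in exposed samples was lost without exposed cortex 3 (-1.46, limma adjusted p = 0.0584), exposed cortex 6 (-1.04, 0.153) or exposed hippocampus 6 (-0.81, 0.183). That in vehicle samples was lost without vehicle cortex 6 (-1.32, 0.0846) or without both vehicle arrays high in choroid plexus markers (-1.31, 0.138).

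Tet2 averaged 7.23 ± 0.18 in exposed hippocampus and 6.59 ± 0.25 in exposed cortex (SD, n = 2 each). That difference was 0.64 (SE 0.28, 95% interval 0.02 to 1.25) and did not pass (limma adjusted p = 0.161). In vehicle samples the order of the tissues was the other way round, at 6.24 ± 0.23 in hippocampus and 7.30 ± 0.17 in cortex (SD, n = 2 each), which is -1.06 (SE 0.28, 95% interval -1.68 to -0.45, limma adjusted p = 0.0228). In order of level, Tet2 was highest in vehicle cortex and exposed hippocampus, whose arrays overlapped, followed by exposed cortex and vehicle hippocampus, which nearly met at 6.42 and 6.40. The call in vehicle samples was lost without vehicle cortex 1 (-0.94, limma adjusted p = 0.149), vehicle cortex 6 (-1.19, 0.0736) or vehicle hippocampus 6 (-0.90, 0.11), or without both arrays high in choroid plexus markers (-1.35, 0.0772).

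Tet3 averaged 8.57 ± 0.01 in exposed hippocampus and 9.34 ± 0.08 in exposed cortex (SD, n = 2 each). Its log2 difference of -0.78 (95% interval -1.35 to -0.20) missed the threshold (limma adjusted p = 0.0729), but passed with quantile normalization (0.0453), with arrays centred on their median (0.0421) and with the replicate block (0.0381). In vehicle samples it was -0.34 with overlapping arrays. Tet1 and Dnmt3a overlapped between the tissues in exposed samples (0.16 and -0.09) and were higher on both hippocampal than on both cortical vehicle arrays, by 0.50 and 0.35. None of the Tet1 and Dnmt3a differences passed. Dnmt3b, below the filter limit, was lower on both hippocampal arrays in each arm, with differences of -0.58 in exposed and -0.49 in vehicle samples in the fit without a filter.

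**Figure D4:**
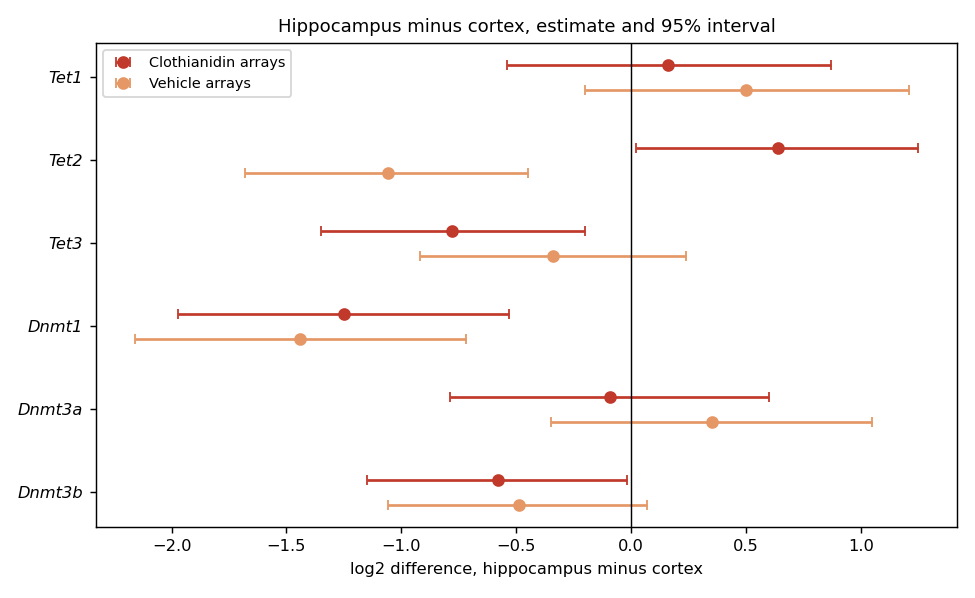
Log2 difference of hippocampus minus cortex (x axis) for the 6 genes (y axis) in exposed and vehicle samples; points are estimates and bars are 95% intervals of the moderated model, with Dnmt3b from the fit without a filter. Dnmt1 lies below 0 in both arms, and Tet2 lies below 0 in vehicle and above 0 in exposed samples.

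The partners of these enzymes were followed in 4 lists, of which 57 of 66 genes had a named probe set and 44 were tested, while the rest were not analysed here. Exposure changed none of them past the threshold in either tissue. With limma, 0 of 44 passed in cortex and 0 of 44 in hippocampus, and at an unadjusted p under 0.05 there were 1 in cortex (D2hgdh) and 2 in hippocampus (Apex1 and Ehmt1). Over all probe sets 0.00675% passed in each tissue, and 6.18% in cortex and 5.81% in hippocampus had an unadjusted p under 0.05. In cortex 21 genes were higher and 22 lower, with a median log2 difference of -0.01 against -0.02 over all tested probe sets. In hippocampus 18 were higher and 26 lower, with a median of -0.09 against 0.01 over all. Groups did not overlap for 5 higher and 6 lower genes in cortex, and for 7 higher and 11 lower genes in hippocampus, where the shares of all probe sets were 17.1% higher and 21.4% lower in cortex and 16.7% higher and 14% lower in hippocampus.

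Methyltransferase cofactors and recruiters had 12 of 17 members tested, since Dnmt3l, Uhrf1, Cdca7, Dppa3 and Zfp57 fell under the filter limit. In exposed cortex 8 were higher and 4 lower (median 0.08), and in exposed hippocampus 5 were higher and 7 lower (median -0.06). Qser1, whose human protein keeps de novo methylation away from CG-rich promoters, differed by 0.37 in cortex (SE 0.27). The histone methyltransferase gene Ehmt1 differed by 0.61 in hippocampus (SE 0.27), with 8.91 and 9.13 on exposed and 8.60 and 8.21 on vehicle arrays. Neither passed (limma adjusted p of 0.859 and 0.842).

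TET partners and demethylation genes had 18 of 26 members tested, with 7 higher and 11 lower in exposed cortex (median -0.06) and 8 higher and 10 lower in exposed hippocampus (median -0.05). D2hgdh encodes the dehydrogenase that clears D-2-hydroxyglutarate, a metabolite that inhibits TET enzymes. It was the 1 gene that the naming rule picked in both tissues, and it was lower on every exposed array than on every vehicle array of the tissue. In both tissues 4.17% of all probe sets were lower in that way and 4.17% higher. Of the other partner genes, Xrcc1 was also lower without overlap in both tissues (-0.31 in cortex, -0.07 in hippocampus), and Qser1 (0.37 and 0.42) and Ahcyl1 (0.35 and 0.18) were higher without overlap in both. In cortex D2hgdh measured 3.92 and 4.04 on exposed and 5.15 and 5.03 on vehicle arrays (-1.11 on the log2 scale, 95% interval -1.88 to -0.34, SE 0.35, limma adjusted p = 0.74). In hippocampus it measured 5.45 and 4.38 on exposed and 5.61 and 5.49 on vehicle arrays (-0.63, SE 0.35, limma adjusted p = 0.896). The exposed cortex values were close to the filter limit, and the hippocampal difference was -0.10 without exposed hippocampus 6. Idh2, the mitochondrial isocitrate dehydrogenase that makes 2-oxoglutarate, differed by -0.61 in cortex (SE 0.30). Gadd45a, a stress-induced gene linked to active demethylation, differed by 0.38 in cortex (SE 0.28).

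Apex1, the endonuclease gene of base excision repair, differed by 0.67 in hippocampus (SE 0.30), with 6.45 and 6.10 on exposed and 5.36 and 5.85 on vehicle arrays, and by -0.19 in cortex. Cxxc4, whose protein binds Tet2 and supplies a CXXC domain, differed by 0.53 in hippocampus (SE 0.32), with 5.05 and 5.13 on exposed and 4.75 and 4.36 on vehicle arrays. Apobec3, an antiviral cytidine deaminase gene, differed by -0.62 there (SE 0.36). None of these passed.

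Of the methyl-CpG readers 6 of 9 were tested, with medians of -0.02 in exposed cortex (3 higher, 3 lower) and -0.13 in exposed hippocampus (2 higher, 4 lower), where Mbd6 differed by -0.52 (SE 0.35). Of the methyl donor cycle, which supplies S-adenosylmethionine, 8 of 14 were tested. Their medians were -0.03 in cortex (3 higher, 4 lower) and -0.15 in hippocampus (3 higher, 5 lower). In cortex Ahcyl1, a relative of the S-adenosylhomocysteine hydrolase gene, differed by 0.35 (SE 0.19) and the folate cycle gene Mthfd1 by -0.37 (SE 0.28).

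**Figure D5:**
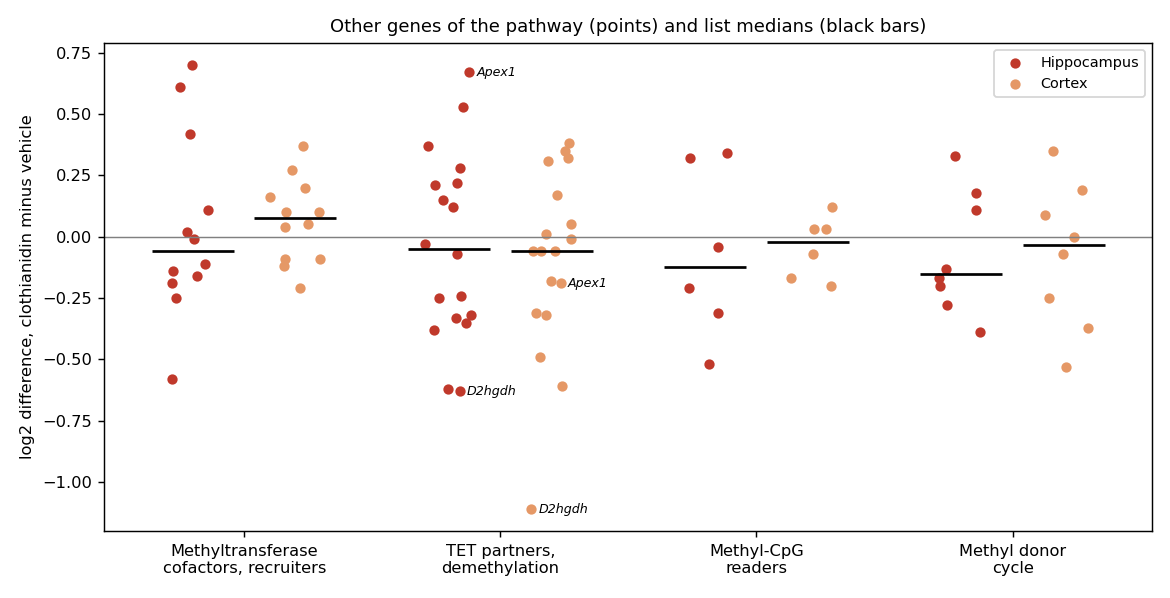
Log2 difference of exposed minus vehicle samples (y axis) for the 44 tested partner genes in 4 lists (x axis), with hippocampus and cortex side by side; points are genes and black bars are list medians. The medians lie between -0.15 and 0.08, and D2hgdh is at -1.11 in cortex.

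Between the tissues, 6 of the 44 partner genes (13.6%) passed in exposed and 9 (20.5%) in vehicle samples, close to the shares of all probe sets given above. In exposed samples 4 were higher and 2 lower in hippocampus, with a median over the 44 of 0.21 against 0.12 over all tested probe sets. In vehicle samples 6 were higher and 3 lower, with a median of 0.24 against 0.10. Higher in hippocampus in both arms were Ahcyl2, another relative of the hydrolase gene (log2 difference 1.53 in exposed and 1.62 in vehicle samples), Trdmt1, a tRNA methyltransferase with a DNMT-like sequence (1.43 in exposed and 1.70 in vehicle samples), and Idh1, the cytosolic isocitrate dehydrogenase (0.82 in exposed and 1.08 in vehicle samples). Lower in both arms were Mat2b, the regulatory subunit of methionine adenosyltransferase (-1.25 in exposed and -1.39 in vehicle samples), and Gadd45a (-1.15 in exposed and -0.93 in vehicle samples). Ogt, whose protein binds TET enzymes, passed in exposed samples (0.95), and Apobec3 (1.64), Setdb1 (1.03), Mtrr (1.07) and Xrcc1 (-1.06) passed in vehicle samples. The exposed Idh1 call was lost with quantile normalization, with arrays centred on their median, without a filter and without the variance trend. In vehicle samples Mtrr lost its call with quantile normalization, centring or no filter, Setdb1 with centring and Gadd45a without a filter. Over the alternatives run, the number passing was 2 to 11 in exposed and 3 to 13 in vehicle samples. Of the 6 calls in exposed samples, leaving out exposed cortex 3 or exposed hippocampus 6 lost 4, exposed cortex 6 lost 3, exposed hippocampus 3 lost Mat2b and either vehicle cortex array lost Idh1. Of the 9 calls in vehicle samples, leaving out vehicle cortex 1 lost 6, vehicle cortex 6 lost 5, either vehicle hippocampus array lost 4 and either exposed cortex array lost Gadd45a. Leaving out both vehicle arrays high in choroid plexus markers lost 6 of the 9.

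Probe sets that varied over the 8 arrays most like each gene, after the mean of each tissue was removed, are given by Pearson's r as a description. All r values rest on the same 8 arrays and were the highest among tested probe sets with a gene symbol. Among all tested probe sets, with or without a symbol, 29 to 63 per gene exceeded 0.9. For Tet2 they were Smcr8 (0.970), Pnpla7 (0.959) and Poldip2 (0.953). Pnpla7, a lysophospholipase gene, differed by -0.57 in exposed cortex and 1.09 in exposed hippocampus. It was picked for its likeness to Tet2 on these same arrays, so these directions are no separate observation. For Dnmt1 they were 4930432K21Rik (0.970), Hes7 (0.965) and Zfp819 (0.964). For Tet1 they were Zc3h13, Fam124a and Hp1bp3 (0.974 to 0.988), for Tet3 Cyp2c54, Gucy2f and Hdhd5 (0.980 to 0.986), and for Dnmt3a Bloc1s5, Dipk1b and Homez (0.967 to 0.971).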

How the data were processed

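The authors deposited 1 table of log2 values per probe set for 8 arrays, normalized with RMA per the submitters' processing notes. Its version and settings were not given in the sources used. The log2 scale was inferred from the range of the values, 1.59 to 19.93, and from what RMA puts out. Genes were named through GEO's platform annotation, and all 19572 named probe sets matched RefSeq by Entrez identifier. Where a gene had several probe sets, the one with the highest mean was used.

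The 4 group means were estimated together from the 8 arrays by limma 3.58.1 under R 4.3.3, with eBayes variances moderated along a trend (residual degrees of freedom 4, prior 7.918). P-values are two-sided and were adjusted by the Benjamini-Hochberg method across the 14804 probe sets of each comparison. For exposure averaged over both tissues, arrays of 1 arm and number were averaged first, as a precaution in case they share an animal. The fits were tested on simulated data. The number of arrays limits the precision.

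The 6 genes and all lists were chosen with earlier results of these data known. The rule for partner genes named every gene past an adjusted p of 0.05, and for exposure up to 3 per direction and tissue with the largest differences among those whose arrays did not overlap. The 3 most correlated probe sets with a gene symbol were named for each tested gene. Tables were made with Python 3.11.15, pandas 2.3.3 and numpy 2.4.6. Promoter sequences are RefSeq's. The alternatives were no or a stricter filter, quantile or median scaling, no trend, array weights, leaving out arrays, and the replicate number as a block.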

Additional observations from a re-analysis of the deposited data

Results flagged for a closer look

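Genes stood out here because both exposed arrays lay on one side of the vehicle arrays in cortex and on the other side in hippocampus. Tet2 did so with a difference between the tissues' exposure effects of 1.70 on the log2 scale, lower in exposed cortex and higher in exposed hippocampus. Apex1 did so in the same directions with 0.86, and Smug1, a uracil DNA glycosylase gene, in the opposite directions with -0.52. Smug1 measured 4.93 and 5.09 on exposed and 4.83 and 4.85 on vehicle cortex arrays, and 4.53 and 4.44 on exposed and 4.61 and 5.06 on vehicle hippocampus arrays. The interaction term did not pass for any of the 3 genes (limma adjusted p = 0.998 for each). Of all 14804 probe sets, 2.33% were lower in exposed cortex and higher in exposed hippocampus in this way, and 1.71% the reverse. Groups of 2 arrays are too small to test for outlying samples.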

How the results depend on the processing

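No alternative brought any of the 5 tested genes past the threshold for exposure in cortex, exposure in hippocampus, their difference or their average. Tet2 differed by -0.88 to -0.53 in cortex, 0.83 to 1.16 in hippocampus and 1.52 to 1.99 between them over the alternatives, with limma adjusted p of 0.535 to 1, and Dnmt1 by 0.20 to 0.61 in cortex and 0.15 to 1.04 in hippocampus. For hippocampus against cortex in exposed samples 1 gene passed (Dnmt1), with 0 to 1 when 1 array was left out, and 2 with quantile normalization, with arrays centred on their median and with the replicate block, where Tet3 passed too. In vehicle samples 2 passed (Tet2 and Dnmt1), with 0 to 2 when 1 array was left out and 0 without the control arrays high in choroid plexus genes (Tet2 -1.35, Dnmt1 -1.31), a fit that leaves 1 array in each vehicle group. With arrays left out, a group of 1 array is assumed to vary like the others. Quantile normalization and centring moved the median of all tested probe sets between hippocampus and cortex by -0.14 and -0.14 in exposed and by -0.097 and -0.16 in vehicle samples. Arrays of the same number in both tissues deviated together in exposed (r = 0.276) but not in vehicle samples (r = -0.001). The consensus correlation from limma for arrays of one arm and number was 0.19. With 2 arrays per group, these values do not settle whether a number stands for 1 animal. The fits by tissue did not treat the number as a pair, although the averaged comparison took the mean over each number. With single arrays instead, Dnmt1 had a limma adjusted p of 0.579 and Tet2 of 0.879. With the replicate block 2 genes passed in exposed and 2 in vehicle samples, and 0 for the difference of exposure between tissues. For members and partner genes, 60 single values lost their call, 0 changed the direction of a called value, and the cause was not tested.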
